A study of Homo sapiens with 12 samples.

Results

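Knockdown of HAND2 alone was compared with a control siRNA in IMR32, an established human neuroblastoma cell line with amplified MYCN. The comparison took in 6 of the 12 samples, the 3 that received the HAND2 siRNA (siHAND2) and the 3 that received the control siRNA (siCtrl), each assigned by its title, and all 27514 genes listed in the deposited table. Every sample was transfected by Nucleofector electroporation, grown in serum-containing medium for 72 h and processed as total RNA. The other samples received an siRNA against MYCN (siMYCN, 3 samples) or both siRNAs (combined knockdown, 3 samples) and enter below only as reference points. The siHAND2 samples carry a single siRNA, numbered 3 in their titles, so an effect of this sequence on other transcripts cannot be told apart from an effect of reduced HAND2. The labels do not say whether the 3 samples of a group were separate cultures, so p-values measure the spread between these samples.

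HAND2 encodes a basic helix-loop-helix (bHLH) transcription factor that pairs with E proteins and binds short DNA motifs called E-boxes. In the embryo it acts with factors such as PHOX2A, GATA3 and ISL1 in neural crest cells that become sympathetic neurons and adrenal chromaffin cells, and it is needed there for noradrenaline synthesis. In neuroblastoma, a tumour of this lineage, the same factors form a mutually regulating circuit that holds cells in a noradrenergic (adrenergic) state, as opposed to a mesenchymal one.

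Values are CPM, read counts scaled to a common library total, and the model used log2(CPM + 1). The 12680 genes whose mean over the 12 samples reached 1 CPM were tested. Estimated depth was 31.6 to 57.4 M reads in the 6 samples, at which 3 reads equal 0.0523 to 0.0949 CPM. Reads in the listed genes made up 65.1% ± 0.736 (SD, n = 3) of a siCtrl library and 59.4% ± 2.39 of a siHAND2 library, with no overlap between the groups (exact permutation p = 0.1, the smallest p that 3 against 3 samples allow). CPM has all reads in its denominator, so a smaller listed share lowers the CPM of listed genes. The median log2 change of the tested genes was −0.14 as deposited and 0.01 once samples were rescaled by the median of their gene-wise ratios to the geometric mean (median-ratio rescaling). A gene is therefore said to have risen or fallen only where the limma adjusted p was under 0.05 in the same direction on both scales, and log2 changes are as deposited unless stated. For genes given sample by sample below, the siCtrl and siHAND2 samples do not overlap on the deposited scale unless an overlap is named. By that rule 4697 genes changed (37.0% of those tested). Of these, 1549 rose (12.2%) and 3148 fell (24.8%), and 257 rises and 137 falls had a log2 change of at least 1 on both scales. No gene was called in opposite directions. On the deposited scale alone 42.7% passed, 12.3% upwards and 30.4% downwards, and on the rescaled one 50.8%, 25.9% upwards and 24.9% downwards, so the balance of rises and falls depends on the scale. The mitochondrial ribosomal RNA RNR2 also moved with the groups, at 495, 641 and 652 CPM in siCtrl and 1672, 1014 and 1117 CPM in siHAND2, and its part in the results was not tested.

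The targeted gene was examined first. HAND2 (hg19 chromosome 4, 174447652 to 174451379, minus strand) stood at 224, 241 and 254 CPM in siCtrl and at 54.3, 64.9 and 67.7 CPM in siHAND2. All siHAND2 samples lay far below all siCtrl samples, and the remaining level was 26.0% of siCtrl as deposited and 29.1% after rescaling. HAND2-AS1, the antisense gene on the other strand, was at 118, 128 and 114 CPM in siCtrl and 117, 109 and 107 CPM in siHAND2, overlapping groups with no call (log2 change −0.11, adjusted p 0.43). Whether reads were counted by strand is not given in the sources used here, so reads of this pair could be exchanged between the genes.

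Several of HAND2's closest relatives and partners in the noradrenergic circuit fell with it. HAND1, the paralogue of HAND2 (chromosome 5, 153854532 to 153857825, minus strand), stood at 19.2, 18.0 and 18.0 CPM in siCtrl and at 3.45, 2.74 and 2.83 CPM in siHAND2. PHOX2A, a homeobox factor that activates the dopamine beta-hydroxylase gene (chromosome 11, 71950121 to 71955221, minus strand, overlapping INPPL1 on the other), stood at 72.3, 62.4 and 70.8 CPM in siCtrl and at 15.4, 17.2 and 15.4 CPM in siHAND2. For both genes the groups were far apart, with log2 changes of −2.28 for HAND1 (SE 0.12, adjusted p 8.9e-14) and −2.03 for PHOX2A (SE 0.14, adjusted p 9.4e-12). MEIS2, a homeobox cofactor, fell from 8.77 ± 0.647 to 3.96 ± 0.274 CPM (log2 change −0.98). These are bulk measurements, in which fewer cells of a type and less RNA per cell cannot be told apart.

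Some other factors of the circuit did not fall. ISL1, a LIM homeobox factor of sympathetic and motor neurons (chromosome 5, 50678958 to 50690564, plus strand, overlapping LOC642366 on the other), stood at 20.4, 21.2 and 22.2 CPM in siCtrl and at 47.5, 46.0 and 48.0 CPM in siHAND2, a rise of 1.11 on the log2 scale (SE 0.11, adjusted p 9.7e-09). The SOXC factors rose as well, SOX4 by 1.14 and SOX11 by 0.86, as did the zinc finger factors ZNF536 by 1.85 and INSM1 by 0.85, and DACH1 by 0.53. GATA3 (−0.22, adjusted p 0.19) and TBX2 (−0.30, adjusted p 0.074) were called on neither scale. MYCN stood at 964, 1049 and 1015 CPM in siCtrl and at 899, 844 and 802 CPM in siHAND2, lower as deposited but overlapping after rescaling, and with a log2 change of −0.25 as deposited and −0.09 rescaled it was called on neither scale. MYCN overlaps MYCNOS on the other strand, at 18.4 and 12.6 CPM. Of the 24 noradrenergic factors tested, 7 rose, 5 fell and 12 did not pass. The share of falls was near that of all tested genes, of which 24.8% fell and 12.2% rose. Of the 5 falls, not all named here, 4 were of at least 1 as deposited. The median log2 change was 0.08 as deposited and 0.21 rescaled, against −0.14 and 0.01 for all tested genes. The plot of CPM by factor shows these separate directions.

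**Figure D1:**
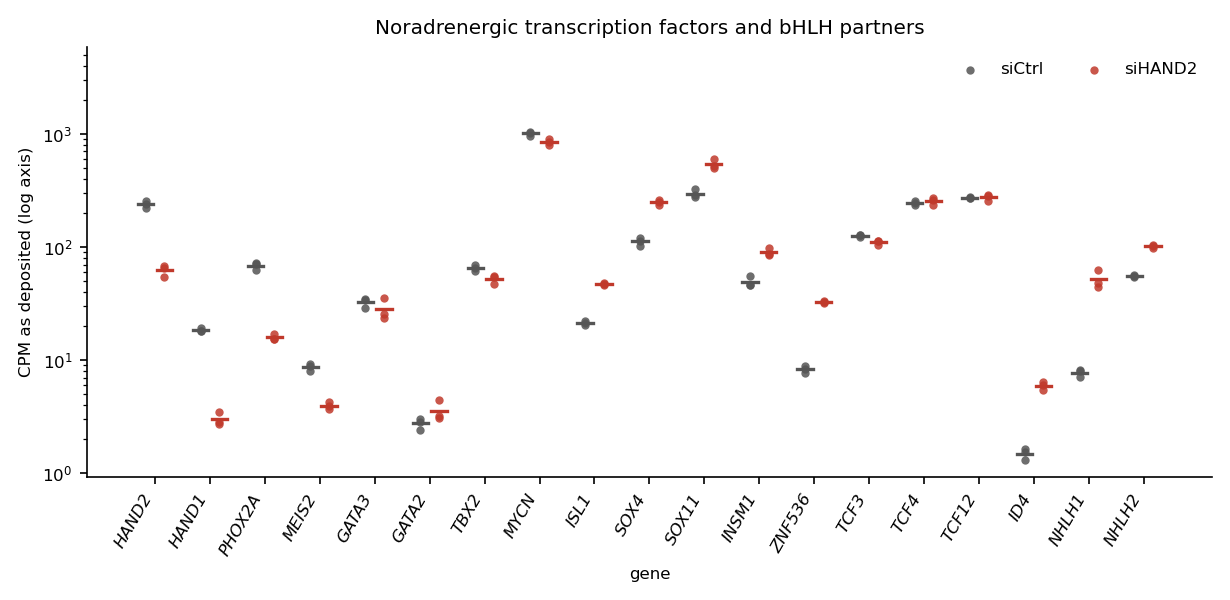
CPM as deposited (log axis) of noradrenergic transcription factors and bHLH partners in the 3 siCtrl samples (grey) and the 3 siHAND2 samples (red), with short lines at the group means. HAND2, HAND1, PHOX2A and MEIS2 lie lower in siHAND2, ISL1, SOX4, SOX11, INSM1, ZNF536, ID4, NHLH1 and NHLH2 lie higher, and the E proteins TCF3, TCF4 and TCF12 are close in both groups.

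The E proteins with which HAND2 pairs did not fall. TCF3 had a log2 change of −0.20 and was called on neither scale, while TCF4 (0.06 as deposited, 0.22 rescaled) and TCF12 (0.02 and 0.18) were called higher only after rescaling. Among 14 tested bHLH partners and their inhibitors 4 rose and 2 fell (all tested genes: 12.2% rose, 24.8% fell). The rises were the neuronal bHLH genes NHLH1 and NHLH2 and the dominant-negative factors ID4 and ID1. NHLH1, which is transiently on in newly born neurons, stood at 8.15, 7.05 and 8.05 CPM in siCtrl and at 63.2, 48.4 and 44.6 CPM in siHAND2 (log2 change 2.59). ID4 rose by 1.48, NHLH2 by 0.87 and ID1 by 0.57, while TWIST1, a bHLH factor of mesenchyme and a HAND2 partner, fell by 0.85 on the log2 scale and HES6 by 0.50.

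HAND proteins are known to prefer the E-box CATCTG, which reads CAGATG on the other strand. The 250 bases upstream of the RefSeq start (GRCh38.p14, each on the gene's own strand) are shown for 2 genes that fell with HAND2, for the gene with the largest fall and for NHLH1, with CATCTG or CAGATG in capitals.
HAND1, chromosome 5, 154478228 to 154478477, minus strand: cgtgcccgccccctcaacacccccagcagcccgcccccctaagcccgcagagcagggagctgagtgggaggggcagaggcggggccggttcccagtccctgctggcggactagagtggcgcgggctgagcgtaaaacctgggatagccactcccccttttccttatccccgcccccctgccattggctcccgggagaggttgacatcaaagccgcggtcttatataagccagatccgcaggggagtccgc
PHOX2A, chromosome 11, 72244177 to 72244426, minus strand: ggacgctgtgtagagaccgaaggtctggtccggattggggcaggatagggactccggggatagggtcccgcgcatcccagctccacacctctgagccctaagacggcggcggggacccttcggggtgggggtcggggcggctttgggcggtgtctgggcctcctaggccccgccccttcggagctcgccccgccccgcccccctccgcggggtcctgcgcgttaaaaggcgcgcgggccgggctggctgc
VEGFD, chromosome X, 15384414 to 15384663, minus strand: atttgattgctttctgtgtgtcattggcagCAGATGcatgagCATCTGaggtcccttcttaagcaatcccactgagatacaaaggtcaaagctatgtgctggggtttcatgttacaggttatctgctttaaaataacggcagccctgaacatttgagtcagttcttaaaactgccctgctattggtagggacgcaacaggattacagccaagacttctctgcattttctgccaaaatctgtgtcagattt
NHLH1, chromosome 1, 160366821 to 160367070, plus strand: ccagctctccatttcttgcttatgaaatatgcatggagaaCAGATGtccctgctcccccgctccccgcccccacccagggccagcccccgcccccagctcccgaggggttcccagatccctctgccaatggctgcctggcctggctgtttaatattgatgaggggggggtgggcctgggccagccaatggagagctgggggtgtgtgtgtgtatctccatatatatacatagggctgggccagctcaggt
The VEGFD stretch holds the motif 2 times, first at position −220 from the start, and the NHLH1 stretch holds it 1 time, at position −210. These letters do not occur in the HAND1 and PHOX2A stretches, nor in those of GAP43, HAND2 and REST, which were also searched and are not printed. Among the 9663 tested genes with a promoter of this length in the table, 7.62% hold the motif on either strand. The share was 10.2% of the genes that rose and 6.39% of those that fell, 11.4% of the genes that fell by at least 1 as deposited and 9.14% of those that rose by at least 1. A match is a description of the letters and not a measured binding site.

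The enzymes and transporters of catecholamine metabolism moved in both directions. Of 11 tested, DDC, the decarboxylase that makes dopamine, rose, and SLC6A2, DBH, SPR and QDPR fell. SLC6A2, the noradrenaline transporter through which radioiodine-labelled MIBG enters neuroblastoma cells, stood at 17.0, 19.5 and 14.7 CPM in siCtrl and at 6.93, 7.21 and 7.43 CPM in siHAND2 (log2 change −1.14, SE 0.13, adjusted p 1.2e-07). DBH, which converts dopamine to noradrenaline, was low throughout, at 2.51, 2.37 and 3.07 CPM in siCtrl and 1.11, 0.942 and 0.738 CPM in siHAND2 (log2 change −0.92). DDC rose from 21.7 ± 1.87 to 32.6 ± 1.05 CPM (log2 change 0.57, adjusted p 0.0048), a call lost when genes of any level were tested (adjusted p 0.052). SPR and QDPR, which make and recycle the tetrahydrobiopterin cofactor, fell by 0.66 and 0.60. TH, the first enzyme of the pathway, was below the filter, at 0.0827, 0.0686 and 0.209 CPM in siCtrl and 0.950, 1.06 and 1.21 CPM in siHAND2. The list had a median log2 change of −0.29 as deposited and −0.14 rescaled.

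Secretory granule genes and markers of neuroblasts and chromaffin cells mostly rose. SCG2, a granin of dense-core vesicles, stood at 43.5, 43.0 and 42.3 CPM in siCtrl and at 123, 133 and 119 CPM in siHAND2 (log2 change 1.52). CHGB rose by 0.82, CHGA by 0.78 and CPE by 0.54, and of 11 granin and peptide genes tested 6 rose and 2 fell. The falls were the neuropeptide GAL (−0.68) and the kappa opioid receptor OPRK1. In a list of 21 tested chromaffin and neuroblast markers 17 rose and 1 fell (DBH), with a median of 0.64 as deposited and 0.80 rescaled. The list shares SCG2, CHGA, CHGB, INSM1 and ISL1 with those above.

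**Figure D2:**
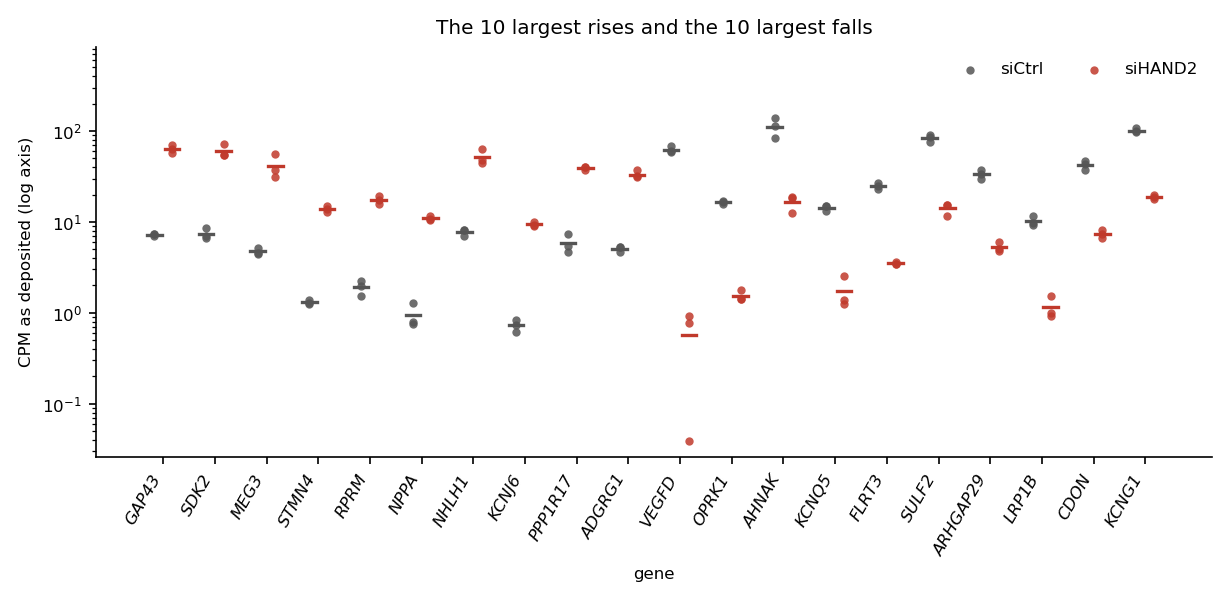
CPM as deposited (log axis) of the 10 largest rises and the 10 largest falls in the 3 siCtrl samples (grey) and the 3 siHAND2 samples (red), with short lines at the group means. The groups do not overlap for any of the 20 genes, which is how they were chosen, and the lowest VEGFD sample lies under the level of 3 reads.

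The largest rise was that of GAP43. This membrane protein of growth cones (chromosome 3, 115342151 to 115440335, plus strand), stood at 7.38, 6.94 and 7.42 CPM in siCtrl and at 57.3, 63.6 and 69.8 CPM in siHAND2, a mean 8.77 times as high (log2 change 2.97, SE 0.13, adjusted p 5.2e-15). It was followed by the synaptic adhesion gene SDK2 (2.86), the imprinted long RNA MEG3 (2.85), the tubulin regulator STMN4 (2.69) and RPRM (2.66), which is known to hold cells in G2. NPPA, the atrial natriuretic peptide and a known target of HAND factors in heart, stood at 0.799, 0.753 and 1.29 CPM in siCtrl and at 10.5, 10.8 and 11.7 CPM in siHAND2 (log2 change 2.63). The others were NHLH1 (2.59), the potassium channel KCNJ6 (2.59), the phosphatase inhibitor PPP1R17 (2.57) and the adhesion receptor ADGRG1 (2.50). Of these 10 genes 9 also differed from siMYCN on both scales, all higher in siHAND2, and STMN4 did not (log2 difference −0.03, adjusted p 0.89). Among all tested genes 8.94% were higher in that comparison, which uses the same siHAND2 samples by which the 10 were picked.

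The largest fall was that of VEGFD, the growth factor for lymphatic vessels (chromosome X, 15363713 to 15402536, minus strand), which went from 60.4, 58.6 and 67.9 CPM in siCtrl to 0.0387, 0.765 and 0.914 CPM in siHAND2. The log2 change was −5.38 (SE 0.16, adjusted p 1.4e-18), and 1 of the siHAND2 samples lay under its level of 3 reads (0.0949 CPM). The readthrough gene PIR-FIGF overlaps it on the same strand and was at 0.119 CPM in siCtrl and 0.238 in siHAND2. OPRK1 followed, at 16.4, 15.8 and 17.1 CPM in siCtrl and 1.80, 1.41 and 1.41 CPM in siHAND2 (log2 change −2.78). The others were the giant scaffold protein AHNAK (−2.68), the potassium channels KCNQ5 (−2.53) and KCNG1 (−2.36), the UNC5 receptor ligand FLRT3 (−2.52), the heparan sulfatase SULF2 (−2.49), ARHGAP29 (−2.46), LRP1B (−2.39) and the hedgehog co-receptor CDON (−2.38). All 10 were also lower than in siMYCN on both scales, as were 22.1% of all tested genes. That comparison again uses the siHAND2 samples by which the 10 were picked. FLRT3 lies inside MACROD2 on the other strand, at 0.793 and 1.24 CPM, and SDK2 and KCNQ5 overlap genes at under 0.3 CPM.

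Genes of neurite growth and the neuronal cytoskeleton rose as a group. Of 30 tested, 22 rose and 1 fell, with a median log2 change of 0.62 as deposited and 0.78 rescaled. Beside GAP43 and STMN4 the largest were STMN2, a tubulin regulator of growing axons, and DCX, the microtubule protein of migrating neurons. STMN2 stood at 4.08, 2.78 and 5.14 CPM in siCtrl and at 23.7, 25.2 and 31.0 CPM in siHAND2 (log2 change 2.48). DCX stood at 70.8, 69.9 and 57.4 CPM in siCtrl and at 282, 213 and 190 CPM in siHAND2 (log2 change 1.76). Microtubule-associated proteins rose by 1.51 (MAPT), 1.37 (MAP1A), 1.21 (MAP6) and 0.99 (MAP1B), and the neuronal tubulin TUBB3 rose by 1.03. The neurofilament genes were split, since peripherin (PRPH) rose by 0.93 and NEFH, typical of mature large axons, fell from 67.1 ± 4.23 to 48.7 ± 1.18 CPM (log2 change −0.45), while NEFL was not called (−0.07). Among 17 motor and adaptor genes of axonal transport, a list written after their values were seen, 8 rose and 2 fell, led by the neuronal kinesin KIF5A (1.57) against KIF1C (−1.62).

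The machinery of neurotransmission rose in part. Of 32 genes of synaptic vesicle release 17 rose and 1 fell, with a median of 0.38 as deposited and 0.50 rescaled. SV2B, a vesicle glycoprotein, stood at 0.275, 0.274 and 0.296 CPM in siCtrl and at 2.88, 2.77 and 3.45 CPM in siHAND2 (log2 change 1.65), and RAB3A (1.55), SYT11 (1.40) and SV2C (1.38) followed. SYN2 was the fall, from 57.4 ± 6.21 to 33.2 ± 1.06 CPM (log2 change −0.77), whereas its paralogue SYN1, which overlaps ARAF (23.1 and 16.2 CPM) on the other strand, rose by 0.89. SNAP25, a core fusion protein, hardly differed as deposited (0.03, adjusted p 0.83) and was called higher only after rescaling (0.19).

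Ion channel genes also rose more often than they fell. Of 36 tested, 20 rose and 4 fell, with a median of 0.32 as deposited and 0.46 rescaled. KCNJ6, a G-protein-gated potassium channel, stood at 0.744, 0.616 and 0.837 CPM in siCtrl and at 9.94, 8.95 and 9.29 CPM in siHAND2. SCN9A, the sodium channel of sensory and sympathetic neurons, stood at 1.97, 2.70 and 1.84 CPM in siCtrl and at 13.4, 13.8 and 13.2 CPM in siHAND2 (log2 change 2.20). The sodium channel SCN3A rose by 1.27 and the calcium channels CACNA1H by 1.31, CACNA1A by 1.24 and CACNA1C by 1.09. The 4 falls in the list were the potassium channels KCNQ5, KCNJ8 (−1.26), KCNC4 (−0.89) and KCNK2 (−0.42), and the potassium channel KCNG1, which fell by 2.36, is not in the list. Receptors for transmitters were mixed, with 12 of 27 higher and 7 lower (all tested genes: 12.2% rose, 24.8% fell). The NMDA receptor subunits GRIN2D (1.97) and GRIN1 (1.05) and the kainate receptor GRIK2 (0.95) rose, and the muscarinic receptors CHRM2 (−1.72) and CHRM1 (−1.49) and the GABA receptor subunit GABRA5 (−1.32) fell. RGS proteins, which switch off G-protein signals, had 4 rises of 13 and no falls, namely RGS8 (1.76), RGS4 (1.64), RGS16 (1.23) and RGS3 (0.61).

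Regulators of neuronal transcripts changed together with these genes. The 4 lists of REST complex genes, RNA-binding factors, neurogenesis factors and progenitor genes were written after the values were seen and carry no weight of their own. The other lists were chosen with earlier results of these data known. REST, the repressor that keeps neuronal genes silent outside neurons (chromosome 4, 57774042 to 57802011, plus strand), stood at 23.6, 26.4 and 17.7 CPM in siCtrl and at 6.01, 6.56 and 4.71 CPM in siHAND2 (log2 change −1.79, SE 0.13, adjusted p 7.9e-11). Of the 9 other REST complex genes, HDAC1 fell (−0.57) and 1 rose. Of 22 RNA-binding splicing and stability factors of neurons 11 rose and 1 fell, with NOVA2 at 9.17, 7.92 and 4.78 CPM in siCtrl and 52.1, 24.4 and 17.9 CPM in siHAND2 (log2 change 1.87). CELF4 rose by 1.56, CELF5 by 1.29 and the REST-silencing splicing factor SRRM4 by 0.92, and the fall was PTBP1 (−0.72), which represses neuronal exons. Of 18 transcription factors of neurogenesis 12 rose and 3 fell, among them CUX2 (1.97), SOX5 (1.63), MYT1 (1.55) and EBF2 (1.42) against BNC2 (−2.22), TLE1 (−1.29) and the glucocorticoid receptor NR3C1 (−1.12). NES, an intermediate filament of neural progenitors, fell from 222 ± 30.9 to 91.3 ± 9.69 CPM (log2 change −1.27), and of the 8 progenitor genes tested 1 other changed, a rise.

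Receptors and cues of axon guidance were divided. Of 48 tested, 18 rose and 9 fell (all tested genes: 12.2% rose, 24.8% fell), with a median of 0.15 as deposited and 0.27 rescaled. Among the rises were SEMA3C (1.64), the semaphorin receptors PLXNA3 (1.28) and PLXNA2 (1.06), the SLIT receptor ROBO1 (1.26) and the netrin receptor DCC (0.75). ROBO1 stood at 64.4, 63.3 and 52.2 CPM in siCtrl and at 158, 146 and 132 CPM in siHAND2. Among the falls were SEMA5A (−1.72) and both SLIT ligands that changed, SLIT1 (−0.95) and SLIT3 (−0.91), which went from 116 ± 13.2 to 61.7 ± 9.57 CPM. Adhesion molecules had 19 rises and 10 falls of 48, with a median of 0.17 as deposited and 0.27 rescaled. CNTN2, a contactin of growing axons, stood at 94.3, 102 and 94.0 CPM in siCtrl and at 597, 512 and 542 CPM in siHAND2 (log2 change 2.50), and LRRTM2 (1.68), ALCAM (1.47) and L1CAM (1.02) rose. CDH11, a cadherin of mesenchymal and neural crest cells, fell from 34.3 ± 1.47 to 7.37 ± 1.12 CPM (log2 change −2.08), and CNTNAP2 fell by 1.76.

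Genes of the mesenchymal state mostly fell. Of 19 tested, 11 fell and 1 rose, with a median of −0.44 as deposited and −0.29 rescaled. AHNAK stood at 113, 139 and 83.2 CPM in siCtrl and at 18.4, 18.8 and 12.4 CPM in siHAND2, SPARC, a matrix glycoprotein, also fell, and VIM, the mesenchymal intermediate filament, fell from 237 ± 11.3 to 120 ± 13.0 CPM (log2 change −0.98). CD44 fell by 0.95. The exception was ZEB1, a repressor of epithelial genes, which rose from 122 ± 3.92 to 190 ± 4.20 CPM (log2 change 0.63). Matrix genes rose and fell in equal number, 12 each of 32. The collagens COL1A1 (−1.89), COL14A1 (−1.88) and COL4A1 (−1.02) and the microfibril protein FBN2 (−1.41) fell, whereas the proteoglycans SPOCK2 (2.42), SPOCK1 (1.93) and AGRN (1.05) and the neuronal migration cue RELN (1.64) rose. SULF2, which trims sulfate groups from heparan sulfate, stood at 86.4, 90.2 and 75.4 CPM in siCtrl and at 15.3, 15.5 and 11.7 CPM in siHAND2. The syndecans SDC2 (−1.35) and SDC1 (−1.11) also fell, among 7 falls and 3 rises in 22 heparan sulfate genes. Among all tested genes 24.8% fell and 12.2% rose, and the median of the heparan sulfate list was −0.06 as deposited and 0.07 rescaled.

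The labelled cell type was checked against sympathetic neuroblast markers, of which PHOX2A, GATA3, ISL1 and CHGA were present and TH and DBH low, and against markers of other cell types. For Schwann cells 4 of 12 markers passed the filter, SOX10 was at 0.209 to 0.559 CPM in the 6 samples and CDH19 had no reads. The summed level of that list was 198 to 205 CPM in siCtrl and 118 to 141 CPM in siHAND2, and 3 of its members fell, namely PMP22 (−1.34), MPZL1 (−0.53) and CNP (−0.51). For fibroblasts 4 of 11 passed, the sum was 130 to 139 CPM in siCtrl and 66.4 to 79.0 CPM in siHAND2, POSTN and FAP had no reads, and 3 fell, among them COL1A1 and PDGFRA (−0.96). The part of such cells in the falls of matrix and mesenchymal genes was not tested. For endothelial cells, immune cells and adrenal cortex 1 of 10, 0 of 11 and 1 of 8 passed, and no sum exceeded 1.98 CPM. TEK, EMCN, CD3E and HSD3B2 had no reads, which allows up to 0.0949 CPM in the shallowest sample by counting error alone. The endothelial gene that passed, CDH5, rose by 0.51.

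Receptors and ligands of growth factors fell more often than they rose. Of 23 tested, 13 fell and 6 rose, with a median of −0.44 as deposited and −0.34 rescaled. ALK, the receptor tyrosine kinase mutated in part of neuroblastomas, stood at 36.8, 39.7 and 37.9 CPM in siCtrl and at 10.6, 11.4 and 12.0 CPM in siHAND2 (log2 change −1.67, SE 0.11, adjusted p 7.9e-12). NGFR, the low-affinity neurotrophin receptor, stood at 46.3, 45.3 and 52.8 CPM in siCtrl and at 12.7, 11.6 and 12.0 CPM in siHAND2 (log2 change −1.90). The neurotrophin BDNF (−1.61), the GDNF-family co-receptor GFRA2 (−1.54), FGFR2 (−1.21) and the heparin-binding factors PTN (−1.20) and MDK (−0.92) also fell. The rises included the neuregulin receptor ERBB4 (2.38), the neurotrophin receptor NTRK3 (1.73), the co-receptor GFRA1 (1.27) and IGF1R (0.71). The paired co-receptors GFRA1 and GFRA2 thus moved apart, from 124 ± 4.92 to 302 ± 48.0 CPM and from 158 ± 12.4 to 53.9 ± 6.17 CPM. In the VEGF family 5 of 8 fell and 1 rose. VEGFC (−0.75), VEGFB (−0.62) and the receptor FLT4 (−0.61) fell with VEGFD, NRP2 rose by 0.64, and VEGFA was not called (0.08). The fall of NRP1 (−0.53) was lost with no filter on low values (adjusted p 0.062), and after rescaling also without siCtrl replicate 2 (−0.30) or without siHAND2 replicate 3 (−0.33).

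Signalling pathways of development showed single strong changes among many unchanged calls. Their counts are to be read beside the shares of all tested genes, of which 24.8% fell and 12.2% rose. In the WNT pathway 9 of 31 fell and 4 rose. The secreted inhibitor DKK1 stood at 18.7, 21.4 and 14.1 CPM in siCtrl and at 3.10, 4.09 and 2.67 CPM in siHAND2 (log2 change −2.15), and the ligand WNT11 (−1.78) and the receptor ROR2 (−1.28) fell. The receptors LGR4 (0.94) and FZD7 (0.89) rose, and the target gene AXIN2 was called lower only as deposited (−0.34). In the BMP and TGF-beta pathway 7 of 29 fell and 5 rose, with LTBP1, which stores TGF-beta in the matrix, at −2.09 and its signal transducer SMAD3 at −1.69, while SMAD1 of the BMP branch rose by 0.71. In the NOTCH pathway 5 of 26 rose and 4 fell. DLK1 (1.59), DLL3 (1.33) and JAG1 (1.20) rose, and HES6 and DLK2 (−0.72) were among the falls. In retinoic acid signalling 7 of 15 fell and 3 rose. The retinoid importer STRA6 fell by 1.45 and the binding protein CRABP2 by 1.09, while the receptor RXRG stood at 4.02, 4.20 and 4.50 CPM in siCtrl and at 24.9, 25.3 and 24.1 CPM in siHAND2 (log2 change 2.30). Of 9 HOX genes tested 1 rose and none fell.

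Genes of the imprinted DLK1-MEG3 region on chromosome 14 rose together. MEG3 (101292445 to 101327361, plus strand), a maternally expressed long RNA, stood at 5.20, 4.47 and 4.51 CPM in siCtrl and at 31.3, 37.5 and 55.8 CPM in siHAND2. RTL1 (101346992 to 101351185, minus strand), a paternally expressed gene, stood at 0.854, 1.51 and 1.79 CPM in siCtrl and at 7.69, 8.06 and 9.50 CPM in siHAND2 (log2 change 2.00). MEG8 (101355986 to 101465451, plus strand) rose by 1.73 and DLK1 (101193202 to 101204562, plus strand), a paternally expressed marker of chromaffin precursors, rose from 1.85 ± 0.320 to 7.57 ± 0.524 CPM. All 4 were also higher than in siMYCN, a comparison that uses the same siHAND2 samples (8.94% of all tested genes were higher there on both scales). MEG8 contains many listed small nucleolar RNAs with means of at most 0.0107 CPM. Of 19 imprinted genes tested 7 rose and 5 fell (all tested genes: 12.2% rose, 24.8% fell). The maternally expressed H19 fell from 3.59 ± 0.193 to 0.663 ± 0.0914 CPM (log2 change −1.47) and CDKN1C rose by 0.70.

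**Figure D3:**
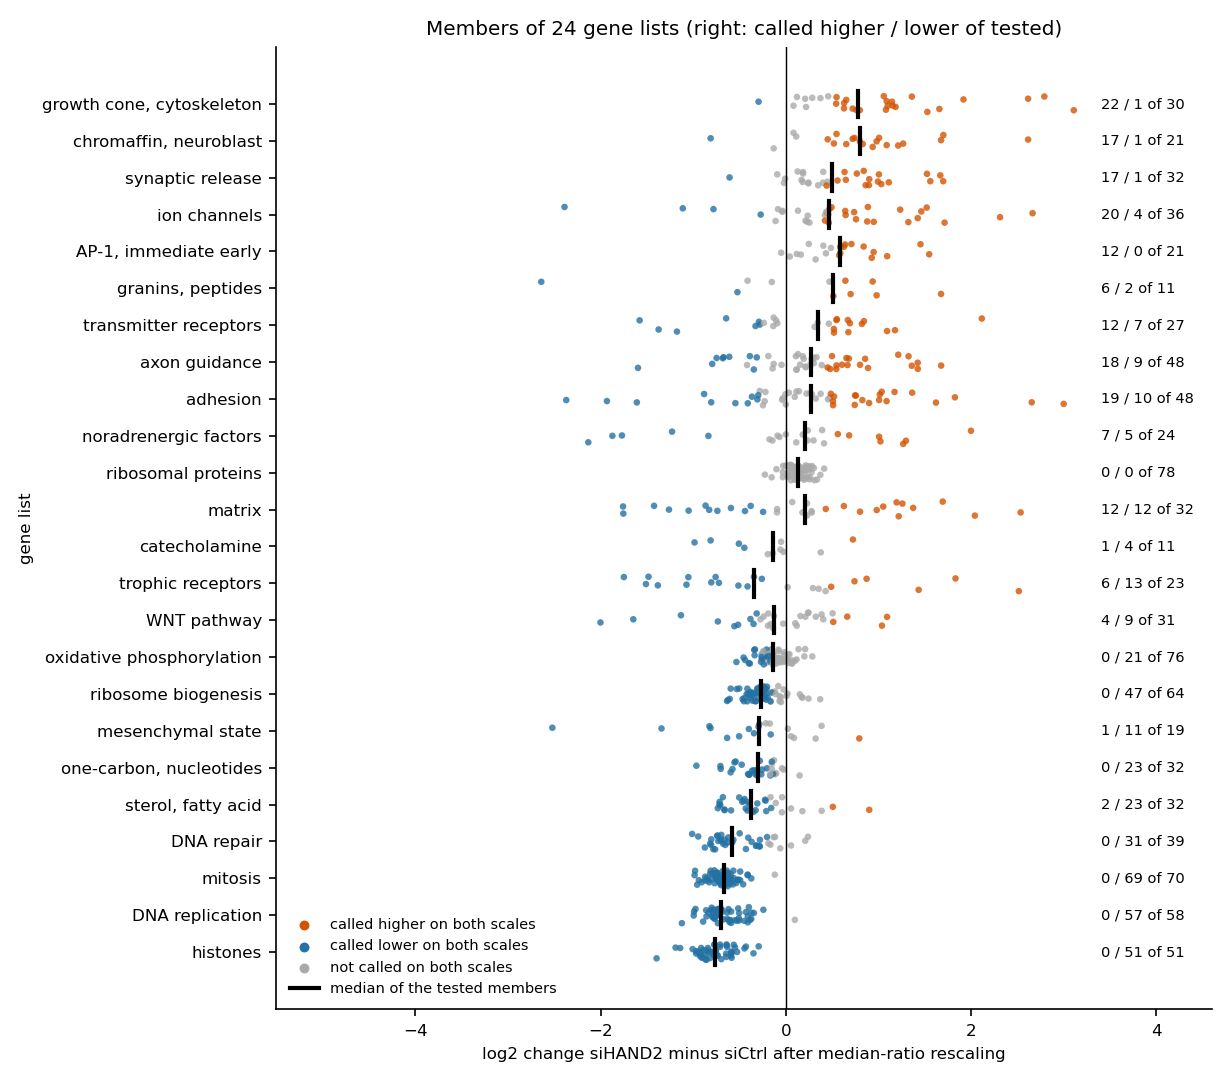
Log2 change of siHAND2 minus siCtrl after median-ratio rescaling for each tested member of 24 of the gene lists (points, coloured by the call on both scales), with a black bar at each list's median and the counts of calls at the right. Growth cone genes lie mostly to the right (22 of 30 higher), and the cell cycle lists lie to the left with 51 of 51 histone genes lower.

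Genes of cell division fell almost without exception. Of 58 DNA replication genes 57 fell and none rose (median −0.86 as deposited, −0.70 rescaled), of 70 mitosis genes 69 fell (−0.83 and −0.67), and of 51 histone genes all 51 fell (−0.93 and −0.77). The exceptions, ORC4 (−0.06) and BUB3 (−0.28), were not called. The background of falls was 24.8%. MCM2, a subunit of the replicative helicase, stood at 240, 244 and 230 CPM in siCtrl and at 135, 138 and 114 CPM in siHAND2. CDK1, the mitotic kinase, stood at 112, 103 and 113 CPM in siCtrl and at 49.1, 54.3 and 52.0 CPM in siHAND2 (log2 change −1.07), and its cyclin CCNB1 fell by 0.99. The largest falls were those of GINS3 (−1.28) and ORC1 (−1.15) among the replication genes, and of CKS1B and KIF23 (both −1.14) among the mitosis genes. The replication-dependent histone HIST1H3E stood at 105, 85.9 and 112 CPM in siCtrl and at 35.5, 32.0 and 33.0 CPM in siHAND2 (log2 change −1.55). Histone genes are near-identical copies, and how reads were shared among them is not given in the sources used here. The spread within each group was small beside these changes, as the plot of list medians by sample shows.

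**Figure D4:**
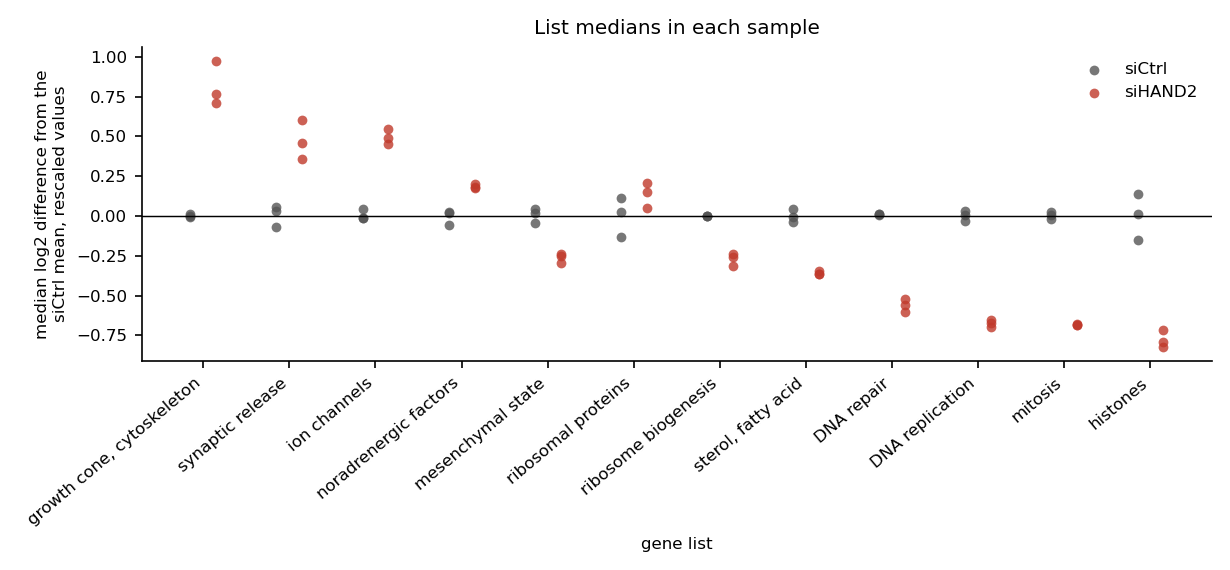
Median over a list's tested members of the log2 difference from the siCtrl mean, after median-ratio rescaling, for 12 lists in each siCtrl sample (grey) and each siHAND2 sample (red). The siHAND2 medians for mitosis genes lie between −0.69 and −0.68, and those for growth cone genes between 0.71 and 0.97, while ribosomal protein genes overlap between the groups.

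Regulators of the G1 to S transition fell less steeply. Of 28 tested, 18 fell and 1 rose (median −0.48 as deposited, −0.33 rescaled). CDK2 (−1.05), E2F7 (−1.15), CCNE1 (−0.57) and E2F1 (−0.53) fell, and the cell cycle inhibitor CDKN1C rose by 0.70. The inhibitors CDKN1A (−0.23) and CDKN1B (−0.11) were not called. CCND1, the D-type cyclin highly expressed in neuroblastoma, stood at 289, 316 and 308 CPM in siCtrl and at 308, 293 and 271 CPM in siHAND2, overlapping groups with no call (−0.07). DNA repair genes followed the replication genes, with 31 of 39 lower and none higher (median −0.73 and −0.58), BRCA1 going from 163 ± 11.0 to 83.0 ± 4.99 CPM. Polycomb genes had 6 falls and 3 rises of 28, with the methyltransferase EZH2 at −0.47 and the opposing demethylase KDM6B at 1.04. Both polycomb shares are near those of all tested genes, of which 24.8% fell and 12.2% rose.

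Genes of growth metabolism fell modestly. Of 64 ribosome biogenesis genes 47 fell and none rose (median −0.42 as deposited, −0.27 rescaled), for example BRIX1 (−0.69) and UTP20 (−0.79). None of 78 cytosolic ribosomal protein genes passed on both scales (median −0.03 and 0.13). By scale, 2 of them were called lower as deposited and 18 higher after rescaling. In the MYC network 4 of 16 fell, a share near the background. The 3 rises were the MAX-binding antagonists MXD1 (1.07), MXI1 (0.43) and MXD4 (0.42). One-carbon and nucleotide synthesis had 23 falls of 32 and no rise, with PRPS2 (−1.12), SHMT1 (−0.86) and PHGDH (−0.76) among them. Sterol and fatty acid synthesis had 23 falls and 2 rises of 32 (median −0.53 and −0.37). SQLE, the squalene epoxidase, stood at 206, 205 and 210 CPM in siCtrl and at 113, 112 and 107 CPM in siHAND2 (log2 change −0.89). TM7SF2 rose by 0.77, a gene that overlaps VPS51 on the same strand and is uncertain. Glycolysis had 14 falls and 2 rises of 30, LDHA going from 618 ± 33.1 to 314 ± 17.5 CPM and the neuronal enolase ENO2 rising by 0.71. Oxidative phosphorylation genes fell in 21 of 76 cases, a share near the background, and chaperones in 11 of 21.

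Stress and death pathways moved little as groups. Among all tested genes 12.2% rose and 24.8% fell. Of 25 stress response genes 4 rose and 3 fell, with DDIT3 (0.55) up and ATF4 (−0.51) down; DDIT3 overlaps MARS, at 156 and 115 CPM, on the other strand. Of 30 p53 targets 6 rose and 9 fell, and the canonical target CDKN1A did not pass. In the BCL2 family the pro-apoptotic genes BBC3 (0.86), HRK (0.84) and BMF (0.72) rose, and BCL2 itself fell from 31.5 ± 2.73 to 16.1 ± 1.71 CPM (log2 change −0.93), among 4 rises and 5 falls of 13. Immediate early and ERK feedback genes had 12 rises and no fall in 21 (median 0.46 and 0.59), with JUN at 19.1, 17.6 and 19.5 CPM in siCtrl and 55.0, 49.3 and 48.4 CPM in siHAND2 (log2 change 1.40), ETV5 at 1.30 and SPRY4 at 0.99. FOS was below the filter, at 0.551, 0.525 and 0.471 CPM in siCtrl and 0.570, 0.589 and 0.643 CPM in siHAND2. In antigen presentation and interferon response 5 of 15 fell and 1 rose. B2M, the shared light chain of MHC class I, fell by 1.07 on the log2 scale. Autophagy genes, a list written after the values were seen, had 8 rises and 3 falls of 26, led by MAP1LC3B (1.05). Of 16 surface targets of neuroblastoma therapy 5 rose, L1CAM, GPC2 (0.97), ST8SIA1 (1.08), DLK1 and SSTR2 (0.83), and 2 fell, ALK and SLC6A2.

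The single knockdowns were then compared directly, to see which of these changes set HAND2 knockdown apart from MYCN knockdown. Between siHAND2 and siMYCN 1133 genes were higher in siHAND2 on both scales (8.94%) and 2805 lower (22.1%). The cell cycle lists differed, with 51 of 51 histone genes, 65 of 70 mitosis genes and 47 of 58 replication genes lower in siHAND2 than in siMYCN. Ribosomal protein genes differed the other way, with 68 of 78 higher in siHAND2, as were 25 of 64 ribosome biogenesis genes. The factors HAND1 (−2.83) and PHOX2A (−2.77) and the receptor ALK (−3.73) were lower in siHAND2, and ISL1 was higher (0.59). In the growth cone list members differed both ways, with 4 of 30 higher in siHAND2, 7 lower and a rescaled median of 0.07. Within it STMN2 was lower in siHAND2 (−1.58) and GAP43 higher (1.17). Members of other neuronal lists also differed both ways. Synaptic release genes were higher in 5 of 32 cases and lower in 7 (rescaled median 0.04). Ion channels were higher in 9 of 36 and lower in 5 (0.09). Chromaffin and neuroblast markers were higher in 6 of 21 and lower in 4 (0.07). Granin and peptide genes were higher in 2 of 11 and lower in 5 (−0.02). Mesenchymal genes were lower in 13 of 19 cases, AHNAK by −4.43, at 375 ± 63.6 CPM in siMYCN.

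The same HAND2 siRNA also separates the combined knockdown from siMYCN, a second pair of groups that shares no sample with the first. There 1131 genes were higher (8.92%) and 3378 lower (26.6%) on both scales. Of the 1549 genes that rose in siHAND2, 815 (52.6%) rose there too and 1 fell, and of the 3148 that fell, 2386 (75.8%) fell there too and 1 rose. These shared genes make up 72.1% of the rises and 70.6% of the falls of the second pair. Across the 12680 genes the rescaled changes correlated at Pearson r = 0.86 and Spearman rho = 0.82, a description across genes, which are not independent replicates. The combined libraries stood apart from each other, with listed genes at 58.4, 51.4 and 44.3% of reads (siMYCN 62.4% ± 0.979), and their replicates 1 and 3 had the highest mean chi-square per gene of all replicate pairs (37.7). Without combined replicate 3, an alternative chosen after seeing the data, the second pair had 1468 rises and 3161 falls, of which 1066 rises (68.8% of the 1549) and 2416 falls (76.7% of the 3148) were shared. Without combined replicate 1 or 2, likewise added, the shared rises were 758 and 700, and the shared falls 2353 and 2237. The part of the listed share in these counts was not tested. In the second pair HAND2 itself had a log2 change of −2.14, HAND1 of −2.81, PHOX2A of −2.08, VEGFD of −4.17 and REST of −1.41, and GAP43 rose by 2.63. All 51 histone genes, 69 of 70 mitosis genes and 56 of 58 replication genes fell again. Of the 22 growth cone genes that rose, 14 rose again, and of the 17 synaptic release genes 9. Among the 17 chromaffin and neuroblast markers that rose, 9 rose again, and among the 6 granin and peptide genes 1. CHGA and CHGB, which rose in siHAND2, did not pass on both scales in the second pair (−0.02 and −0.17), nor did L1CAM (0.07) and SOX4 (0.16). Of these, CHGA, L1CAM and SOX4 were called higher there after rescaling.

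**Figure D5:**
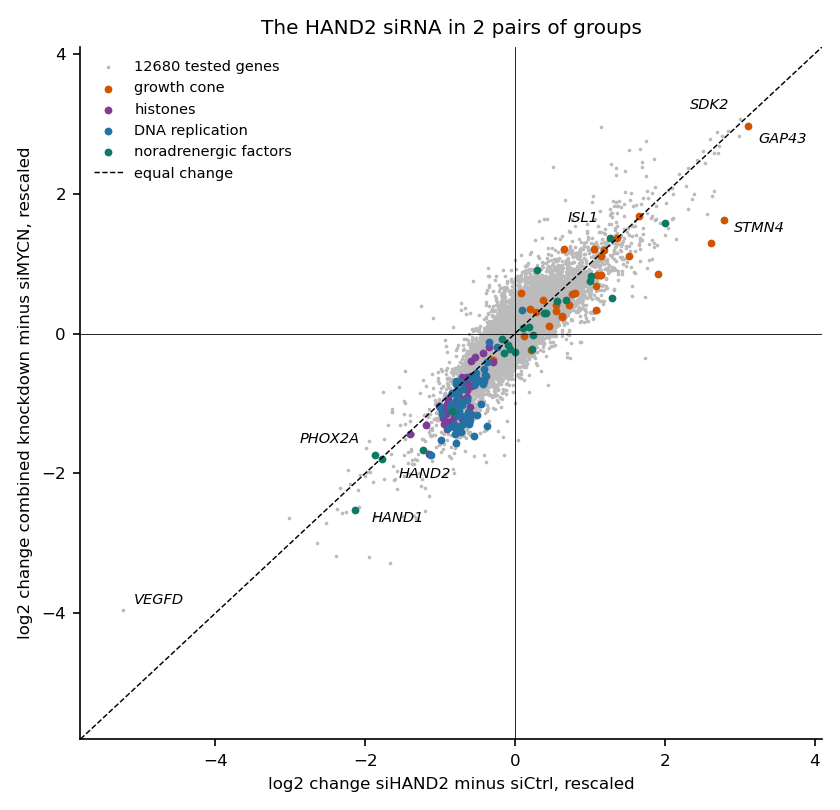
Log2 change of siHAND2 minus siCtrl (horizontal) against that of the combined knockdown minus siMYCN (vertical), both after median-ratio rescaling, for the 12680 tested genes, with 4 lists in colour and a dashed line of equal change. The pairs share no samples, and most genes lie near the line (Pearson r = 0.86 across genes), with STMN4 below it and VEGFD above it.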

How the data were processed

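RNA-seq was deposited as 1 table of CPM for the 12 samples, with a constant of 0.0001 added to every value. Per the submitters' processing notes the authors used STAR 2.5.1, Partek and hg19. The counting tool, annotation and use of strand are not given in the sources used here. Values under 20 reads came out whole in at most 90.5% of cases (tolerance 0.05 reads, 95% needed), so no count test was run. Genes with a mean of at least 1 CPM were fitted as log2(CPM + 1) with limma 3.58.1 (R 4.3.3, 4-group model, mean-variance trend, Benjamini-Hochberg, adjusted p under 0.05, two-sided), as deposited and after median-ratio rescaling over genes with a mean of at least 5 CPM. Tables were handled in Python 3.11.15 with pandas 2.3.3, and the procedure was tested on simulated data. Groups come from the sample titles. Named genes are HAND2, the 10 largest rises and 10 largest falls (mean of at least 5 CPM, called and not overlapping on both scales), members of 48 gene lists, and members of 6 lists written after values were seen, along with genes that overlap a named gene. The members and lists were chosen with earlier results of these data known. Lists are described by counts and medians, and were not tested as sets. Alternatives were the pseudocount, filter, scale, samples in the fit, variance prior, threshold, replicate block and leaving out each replicate. Intervals of depth cover counting error only. Results for a few genes are not reported here.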

Additional observations from a re-analysis of the deposited data

Results flagged for a closer look

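The change with the HAND2 siRNA differed between cells with and without the MYCN siRNA for 4 of the 20 genes with the largest changes. This is the interaction term of the limma model on log2(CPM + 1) (adjusted over all tested genes, 3 samples per group). The 20 genes were picked by their change against siCtrl, which enters the interaction term. That choice favours a smaller second change, and the share of all tested genes with such a difference is not given here. STMN4 rose by 2.69 against siCtrl and by 1.29 between the combined knockdown and siMYCN, a difference of −1.40 (adjusted p 0.00014). ADGRG1 rose by 2.50 and by 1.63, a difference of −0.863 (adjusted p 0.0085). Both genes stood higher in siMYCN than in siCtrl, since siHAND2 minus siMYCN was only −0.03 for STMN4 and 0.88 for ADGRG1. The part of these higher starting levels in the 2 differences was not tested. VEGFD had log2 changes of −5.38 and −4.17, a difference of 1.21 (adjusted p 0.0023). VEGFD started at 62.3 CPM in siCtrl and 30.3 CPM in siMYCN. It ended at 0.573 CPM in siHAND2 and 0.732 CPM in the combined knockdown, under the pseudocount of 1. The part of the starting level and the pseudocount in this difference was not tested, so it is not read as a different response. KCNQ5 had −2.53 and −3.37, a difference of −0.845 (adjusted p 0.015). All 4 were also called after median-ratio rescaling (−1.16, −0.66, 1.28 and −0.79).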

How the results depend on the processing

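As deposited, 5411 genes were called, 1556 higher and 3855 lower. Scale moved the higher calls to 3286 after median-ratio rescaling, 2953 with the sum over listed genes, 3313 with rescaling and a pseudocount of 0.1 (chosen after seeing the data) and 3546 with rescaling and the replicate block. With an absolute log2 change of at least 1, 507 were called (257 higher, 250 lower), and 484 after rescaling (347 higher, 137 lower). Leaving out 1 replicate gave 4303 to 4670 calls (1236 to 1502 higher, 2959 to 3414 lower), and 5484 to 5941 after rescaling (2658 to 2903 lower, and 2779, 3038, 2826, 2937, 2906 and 2964 higher without siCtrl 1, 2, 3 and siHAND2 1, 2, 3). Same-numbered siCtrl and siHAND2 samples deviated together for numbers 1 and 3 (r = 0.32 and 0.42) and not for number 2 (−0.07). The deposited column names run in order of replicate number, but no label states pairs. The main model took no pairs, and a replicate block was run as an alternative. The replicate block gave 6140 calls (1798 higher, 4342 lower). The listed share differed by −8.43 percentage points within number 3. Counts of all calls under the other settings stayed within 1.5 times the 5411. The cause of these moves was not tested.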
